A study of Hydra viridissima with 2 samples.

Results

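Gene models of the green hydra with a single exon interval and a coding length of exactly 414, 426, 618, 765, 771, 780 or 1281 nt were described here as candidate mobile elements. They were chosen by structure and length alone, with no use of their counts. There were 1584 such models, 4.58% of the 34573 models in the table and 8.57% of the 18473 models with a single interval. The 1281 nt length had 319 models, 771 nt had 235, 765 nt had 231, 780 nt had 226, 426 nt had 216, 414 nt had 205 and 618 nt had 152.

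The study measured RNA of whole polyps of Hydra viridissima clone 2, a freshwater cnidarian whose gut-lining epithelial cells normally house green algae. There was 1 library of green, symbiotic polyps, which carry the algae, and 1 library of aposymbiotic polyps, which lack them. Both came from a large pool of well-grown animals of the same clone, kept in hydra medium, fed on brine shrimp and collected some days after a meal, and ribosomal RNA was removed enzymatically before sequencing. Since each condition had 1 library, no test and no replicate check was possible. Intervals on ratios cover counting error only. Intervals on shares of models treat each model as a separate draw and hold no spread between animals. Differences given below are those of this pair of libraries.

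The symbiotic library held 6905650 read pairs counted on models and the aposymbiotic library 5533508. The identifiers in the table carry no gene names, so the label of whole polyps was not checked against marker genes, and the models could be grouped by length and position but not by sequence. Exon lengths were multiples of 3 in 98.4% of models, and lengths are therefore called coding lengths. Coordinates are those of the table (genome build not given in the sources used here).

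Mobile elements are stretches of DNA that can be copied or moved to new places in a genome, so that a family leaves many copies of similar length on many chromosomes. Some carry a single gene, usually for the enzyme that moves them, and others carry several genes in a fixed order. Automated gene prediction often reports their reading frames as ordinary single-exon genes. Repeats of this kind make up much of the DNA of brown hydras, the relatives of the green hydra. No class of element is assigned to the models described here.

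Each of the 7 lengths stood above the background of lengths around it, taken as the median over lengths within 30 nt that were shared by fewer than 100 models. The 1281 nt length had 319 single-interval models where that median was 9 models, a ratio of 35.4. The 3 lengths from 765 to 780 nt had 8.07 to 8.70 times the median of their neighbours, which was 27 or 28 models. The shorter lengths stood less far above theirs, by ratios of 3.47 at 414 nt, 3.86 at 426 nt and 4.41 at 618 nt, where the neighbouring medians were 59, 56 and 34.5 models. Directly beside 1281 nt there were 8 models of 1278 nt and 25 of 1284 nt, and 1287 nt was itself recurrent with 102. Other recurrent lengths lay close by in the spectrum, and some were more numerous than the chosen ones. There were 400 models of 411 nt, 302 of 405 nt and 232 of 390 nt, each more than at 414 nt, and 125 of 783 nt and 145 of 786 nt. In all, 23 lengths were shared by at least 100 single-interval models, and the 16 not chosen here held 3191 models. The 7 lengths were taken as equal-length families at the outset, so their excess describes that choice and is not support for it. The chosen lengths correspond to 137, 141, 205, 254, 256, 259 and 426 codons once a stop codon is taken off.

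**Figure D1:**
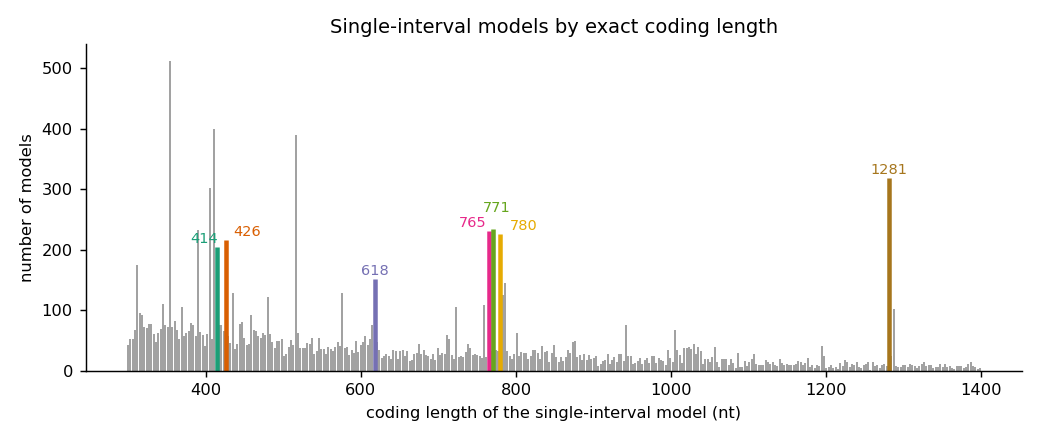
Number of single-interval models (vertical axis) at each coding length in nt (horizontal axis), with the 7 described lengths in colour and all other lengths in grey. The 319 models of 1281 nt stand in a range where lengths shared by fewer than 100 models have a median of 9, with 1287 nt (102 models) the other tall length there, whereas 414 and 426 nt lie among several other tall lengths.

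The models were dispersed over the assembly. They lay on 23 of the 105 scaffolds, each length was found on 18 to 20 scaffolds, and 15 scaffolds carried all 7. The 16 scaffolds with most models held 97.1% of the 1584, against 94.6% of all models. No scaffold dominated a length: the scaffold with most copies held 10.2% of the 426 nt models, the lowest such share, and 16.6% of the 771 nt models, the highest. Strands were used evenly, with 800 models on the plus and 784 on the minus strand.

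Density varied between the large scaffolds. Measured against the end of the last model, it had a median of 5.73 per Mb over these 16 scaffolds, reached 7.27 per Mb on scaffold 9 and fell to 1.18 per Mb on scaffold 13. Scaffold 13 spans 11.9 Mb and had 14 of the models, none of them of 618 nt, and they made up 2.39% of its single-interval models. Scaffold 15 lacked the 414 nt length and had 2.53 per Mb.

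**Figure D2:**
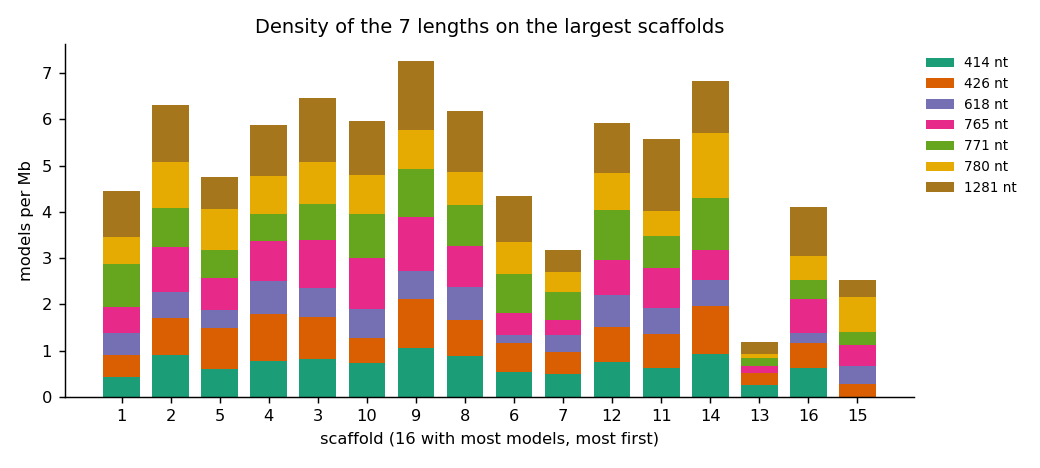
Models of the 7 lengths per Mb (vertical axis, stacked by length) on the 16 scaffolds with most models, ordered by number of models (horizontal axis). All 7 colours recur on nearly every scaffold, and scaffold 13 has the fewest, 1.18 per Mb against 7.27 on scaffold 9.

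Copies of the same length were far apart. The median distance between the starts of consecutive copies on a scaffold was 516748 bp for 1281 nt, the most numerous length, and 1136914 bp for 618 nt, the least numerous. It was 672432 bp for 771 nt, 733320 bp for 765 nt, 838805 bp for 414 nt, 877637 bp for 780 nt and 962865 bp for 426 nt. Distances under 10000 bp were 0% of those at 780 nt and at most 2.36%, at 765 nt, so tandem copies of a length were rare. Across lengths, however, the models were clustered: the median distance from any of the 1584 to the next was 6965 bp, and 54.8% of these distances were under 10000 bp.

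Copies of different lengths lay side by side. Of the 1584 models, 997 (62.9%) had a model of another of the 7 lengths within 5000 bp. The share was 75.8% at 765 nt, 74.1% at 414 nt, 72.1% at 780 nt, 69.9% at 426 nt, 61.2% at 618 nt and 60.8% at 1281 nt. The 771 nt length stood lower, at 29.4%. Within 5000 bp there were 1147 pairs of different lengths and only 7 of equal length, and 20 of the 21 possible combinations of lengths occurred.

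Models in these pairs rarely pointed towards each other. Both models were on the same strand in 672 pairs, and in 470 they pointed away from each other. They pointed towards each other in 5 pairs, 0.436%. Which of these applied depended on the lengths, and in most pairs the lengths fell into a group of 426, 765, 771 and 780 nt on 1 strand and a group of 618, 1281 and 414 nt on the other. This strand rule held in 246 of the 273 runs described below (90.1%). The 765 nt length supplied most of the exceptions: it diverged from 771 nt in 13 of 20 pairs and from 780 nt in 9 of 113, and shared a strand with 1281 nt in 10 of 100 and with 414 nt in 7 of 11.

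In the first group, reading along the strand, a 780 nt model came first, then 765 or 771 nt, then 426 nt. A 780 nt model was followed by a 765 nt model on the same strand in 103 pairs, and the gap between them was exactly 31 bp in 74 of these and within 5 bp of that in 102. The step from 765 to 426 nt had a median gap of 667 bp over 102 pairs, and 88 gaps were within 5 bp of the most frequent one. From 780 to 426 nt the median gap was 1464 bp over 106 pairs, with 75 within 5 bp of the most frequent one, 1463 bp. The 771 nt model could take the middle place: it followed a 780 nt model in 37 pairs, 26 of them within 5 bp of 31 bp and 11 at 39 to 45 bp, and it preceded a 426 nt model in 34 pairs with a median gap of 669 bp. The pairs of 780 and 765 nt were spread over 16 scaffolds, so this spacing recurred at widely separate places.

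In the second group a 618 nt model came first, then 1281 nt, then 414 nt. The gap from 618 to 1281 nt had a median of 1280.5 bp over 64 pairs and a range of 1207 to 1566 bp. A 414 nt model followed a 1281 nt model in 130 pairs, on 16 scaffolds, and these hold 63.4% of the 414 nt models and 40.8% of the 1281 nt models. Its gap had a median of 65 bp and took separate ranges: 74 pairs had 50 to 70 bp, 41 had 200 to 210 bp and 15 lay between these ranges.

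The groups met head to head, with their starts facing each other. The 780 and 1281 nt models diverged in 123 pairs, with a median gap of 3913 bp and a range of 2426 to 4647 bp. The 618 and 780 nt models diverged in 61 pairs, with a median gap of 1987 bp. Diverging pairs of 765 and 1281 nt numbered 90, at a median of 4658 bp. The stretch between the 780 nt model and the 618 or 1281 nt model was therefore more variable in length than the steps within the first group, judged by the middle of each distribution. The central 50% of gaps ran from 3821.5 to 4474.5 bp between 780 and 1281 nt and from 666 to 668 bp between 765 and 426 nt. Single copies departed from that last spacing, with a full range of 433 to 2472 bp from 765 to 426 nt and of 659 to 3361 bp from 771 to 426 nt.

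Chained together at gaps of at most 5000 bp, the models formed 273 runs of at least 2, which took in 1008 models, and 576 models stayed alone. There were 77 runs of 2 models, 48 of 3, 55 of 4, 69 of 5, 23 of 6 and 1 of 7. The order set out above, with any member allowed to be missing, described 230 of the 273 runs (84.2%) and 84 of the 93 runs of 5 or more. It was read off these runs, so that share is a description of the same data. Runs lay on 20 scaffolds, 144 in plus and 129 in minus orientation. Starts of consecutive runs were a median of 596809 bp apart.

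The complete series of 426, 765, 780, 618, 1281 and 414 nt occurred in 17 runs on 9 scaffolds. They spanned 7832 to 9052 bp, with a median of 8323 bp, and had 1 to 4 further models inside, with a median of 3. The most frequent composition was the same without the 618 nt model, in 22 runs on 11 scaffolds. The version with 771 nt in place of 765 nt and without 618 nt occurred in 17 runs, also on 9 scaffolds, and spanned 9040 to 9137 bp. A form outside this order had 771 and 780 nt on 1 strand and 765, 1281 and 414 nt on the other, in 6 runs on 5 scaffolds that spanned 7552 to 7596 bp.

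A complete run on scaffold 2 shows the spacing. Minus-strand models of 426, 765 and 780 nt occupied positions 22610827 to 22611252, 22611920 to 22612684 and 22612717 to 22613496. Plus-strand models of 618, 1281 and 414 nt followed at 22615484 to 22616101, 22617392 to 22618672 and 22618736 to 22619149. None of its 6 models had a count in either library. A complete run on scaffold 3, in the other orientation, spanned 6923694 to 6931955, and its 6 models summed to 8 symbiotic counts and 1 aposymbiotic count.

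Models of other lengths filled fixed places in the arrangement. Among the 319 models of 1281 nt, 128 were followed within 400 bp on the same strand by a 414 nt model, 54 by a model of 435 nt, 81 by another length, and 56 by none. Before the 128 that lead to 414 nt, a 780 nt model lay on the opposite strand in 101 (78.9%), a 426 nt model in 81, and a model of 786 nt in 0. Between them, on the strand of the 1281 nt model, were a 369 nt model in 70, 723 nt in 57 and 618 nt in 41, with 615 nt in 30. A 1437 nt model was present in 31 and a 1461 nt model in 21.

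The 54 that lead to 435 nt had other partners. There the opposite strand carried a 786 nt model in 44 (81.5%) and a 771 nt model in 48 (88.9%), and a 780, 765 or 426 nt model in 0. A 480 nt model preceded the 1281 nt model in 43, with its median end 52 bp before it, and 759 nt was present in 32. Thus the 1281 and 771 nt lengths occurred in both settings. Opposite-strand models of 426, 765 and 780 nt were found before the 1281 nt models of the 414 nt setting and not before those of the 435 nt setting. The 414 nt length defines its setting, so its own difference between the 2 was fixed in advance. The 2 settings were separated by the length that follows 1281 nt, which is itself a position and not an expression measure, and the contrast was set up after the positions had been seen.

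**Figure D3:**
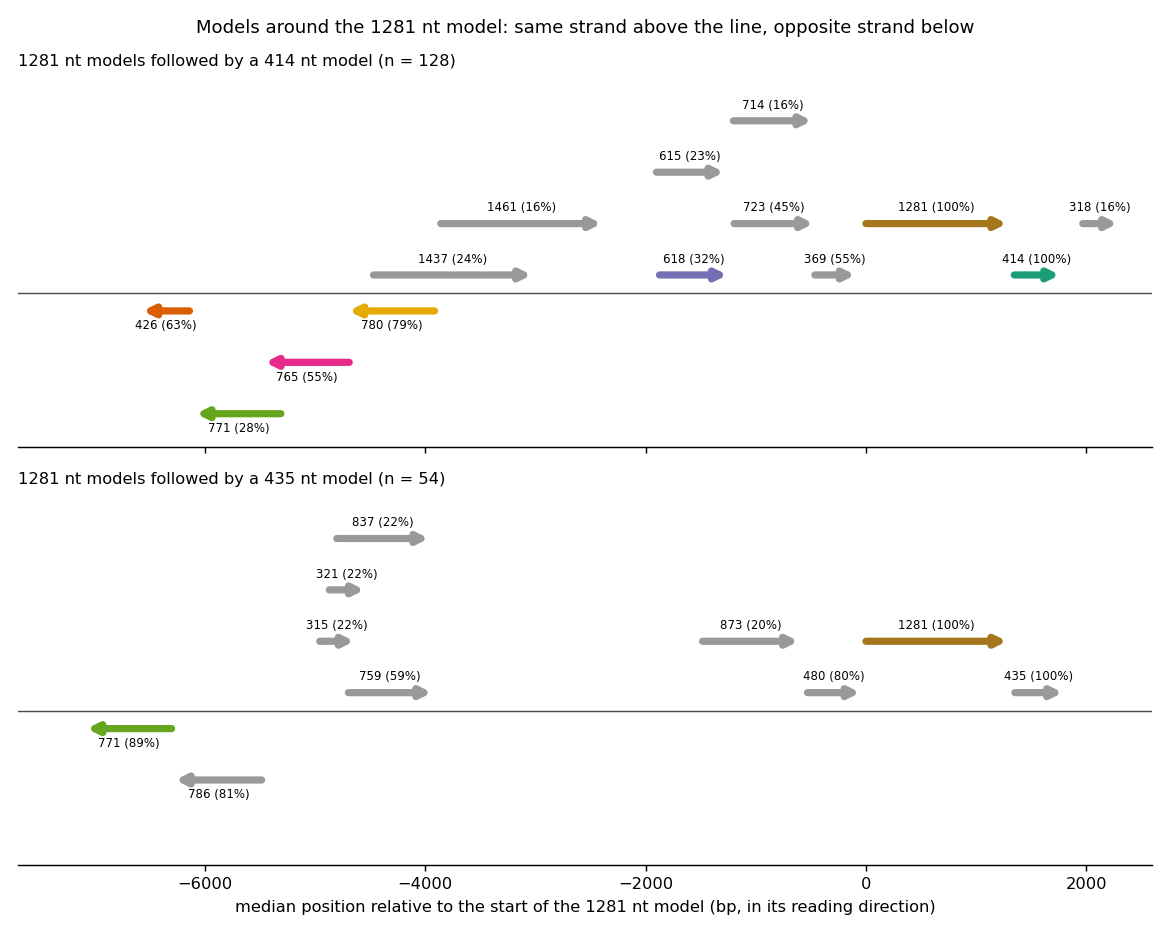
Median position in bp of models around the start of the 1281 nt model (horizontal axis), for the 128 followed by a 414 nt model and the 54 followed by a 435 nt model; arrows give reading direction, same strand above the line and opposite strand below, and labels give the length in nt and the share of 1281 nt models with that neighbour. The upper panel has 780, 765 and 426 nt on the opposite strand, and the lower panel has 786 and 771 nt there, further from the 1281 nt model.

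The 765 and 771 nt models differed in what precedes them. Within 130 bp before it, a 765 nt model had a 780 nt model in 103 of 231 cases (44.6%). A 771 nt model had a 786 nt model there in 99 of 235 cases (42.1%) and a 780 nt model in 38. After it, at 600 to 750 bp, 426 nt was present for 94 of the 765 nt models (40.7%) and 26 of the 771 nt models (11.1%). The 786 nt length is not among the 7, and in the 435 nt setting the 771 nt model began at a median position of -6302 bp from the start of the 1281 nt model, outside the window of 5000 bp. With a window of 10000 bp, 148 of the 235 models of 771 nt had another of the 7 lengths near, against 69 at 5000 bp.

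The middle model also went with the gap at the far end of the arrangement. Where the opposite strand carried a 765 nt model and no 771 nt model, the gap from 1281 to 414 nt was 50 to 70 bp in 52 of 69 cases (75.4%) and 200 to 210 bp in 15, with a median of 63 bp. Where it carried a 771 nt model and no 765 nt model, the gap was 50 to 70 bp in 5 of 35 cases (14.3%) and 200 to 210 bp in 19 (54.3%), with a median of 201 bp. The remaining 11 gaps of the 771 nt cases, and 2 of the 765 nt cases, lay between these ranges. The 765 nt model itself began at a median of -4690 bp from the 1281 nt model. No test was made, since copies that share a sequence would not be independent of each other.

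**Figure D4:**
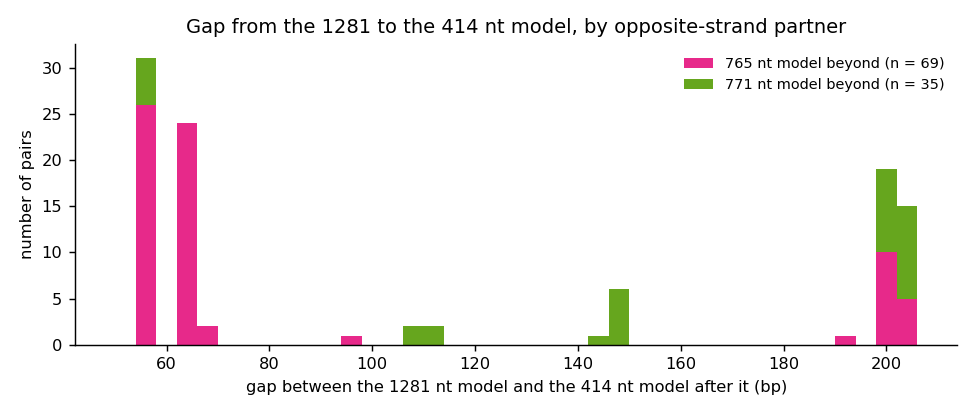
Gap in bp between a 1281 nt model and the 414 nt model after it (horizontal axis) and number of pairs (vertical axis, stacked), split by the middle model on the opposite strand. The 69 pairs with 765 nt have a median of 63 bp and the 35 with 771 nt a median of 201 bp.

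A further model began close to the start of the 780 nt model and ran the other way. It lay within 100 bp in 124 of the 226 models of 780 nt (54.9%), at a median gap of 35 bp, and 122 of the 124 had a single exon block. Its length was not constant: 1437 nt was most frequent, in 34, followed by 1461 nt in 27 and 1431 nt in 13, and 87 were between 1400 and 1500 nt long. Of the other recurrent lengths, 723 nt had one of the 7 within 5000 bp for 86.8% of its 106 models, 786 nt for 74.5% of 145 and 759 nt for 62.0% of 108. By contrast the share was 3.52% for the 512 models of 354 nt, 0.513% for the 390 of 516 nt and 0% for the 129 of 576 nt. The rest ranged between these extremes, with 52.4% at 369 nt, 49.2% at 480 nt, 45.3% at 435 nt, 19.8% at 411 nt and 0.993% at 405 nt among them. Recurrent lengths thus differed widely in this share, which was not computed for lengths that are not recurrent.

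Placement inside introns of other models was rare. It was found for 2 of the 1584 models, 0.126%, against 48 of the 3191 single-interval models of the other recurrent lengths and 67 of the 13698 of all remaining lengths (0.489%). Allowing overlap with an exon of the surrounding model raised the number to 4, the 2 added ones being of 765 nt. The distance to the nearest model with several exon blocks had a median of 9379 bp for the 7 lengths, against 15262 bp for the other recurrent lengths and 6283 bp for remaining single-interval models. It was under 1000 bp for 5.81%, against 7.16% of the other recurrent lengths and 13.1% of remaining single-interval models.

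Both models inside introns had counts, and neither had another of the 7 lengths within 5000 bp. A 426 nt model on scaffold 3 (14751890 to 14752315, minus strand) lay in a 1902 bp intron of a model of 16 exon blocks on the same strand (14741953 to 14754815). It had 22 symbiotic and 15 aposymbiotic counts, and its host 148 and 123. A 780 nt model on scaffold 12 (6912462 to 6913241, plus strand) lay in a 5551 bp intron of a model of 16 exon blocks on the opposite strand (6904932 to 6920445). It had 22 symbiotic and 14 aposymbiotic counts, and its host 589 and 514. Counting did not use strand, so reads from an unspliced host transcript and from the model inside it cannot be told apart.

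Few reads were counted on these models. They summed to 3937 symbiotic and 3354 aposymbiotic counts, 0.0570% and 0.0606% of the library totals. No count in either library was found for 932 models (58.8%, 95% Clopper-Pearson interval 56.4 to 61.3), against 28.4% of all models, 36.5% of remaining single-interval models and 75.3% of the other recurrent lengths. Another 506 models had 1 to 9 counts over both libraries, 146 had at least 10, and 34 had at least 50. Reads with several alignments were not admitted by the authors' counting, so a model without counts is one without uniquely placed reads and need not be one without transcripts. A count of 0 allows up to 3 counts, or 4.34e-05% of the symbiotic and 5.42e-05% of the aposymbiotic total.

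The share without counts differed between lengths. At 426 nt 108 of 216 models had none, the lowest share (95% interval 43.1% to 56.9%), and it was 70.2% at 771 nt (63.9 to 76.0), the highest. The others were 54.6% at 618 nt, 55.8% at 1281 nt, 57.6% at 765 nt and 61.5% at both 414 and 780 nt. Per kilobase of coding length, the 426 nt models averaged 10.1 symbiotic and 8.22 aposymbiotic counts per model, and the 1281 nt models 1.86 and 1.62. These averages rest on few models, since the median count was 0 in each library at both lengths. The 5 most counted models held 52.7% of the counts at 426 nt and 43.5% at 1281 nt. Because copies of a length may share sequence, the intervals on the shares without counts treat as separate what need not be.

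Isolated models held most of the counts. The 308 models with no recurrent length within 5000 bp, 19.4% of the set, held 2318 symbiotic and 2001 aposymbiotic counts, 58.9% and 59.7% of the counts of the set. The 997 models near another of the 7 lengths held 1157 and 927, which is 29.4% and 27.6%. The remaining 279, near only another recurrent length, held 462 and 426. Per kilobase, the isolated models averaged 10.5 symbiotic and 9.03 aposymbiotic counts and the clustered 997 averaged 1.55 and 1.24. The isolated average rests on few models. The 20 most counted of the 308 held 65.2% of their counts, and the median count of the 308 was 0 in each library. Within each of the 7 lengths too, models with none of the other lengths near had more symbiotic counts per kilobase than those with one near, for example 11.3 against 1.65 at 414 nt and 3.17 against 1.03 at 1281 nt. No count was found for 43.2% of the isolated models (37.6 to 48.9) and 62.9% of the clustered ones (59.8 to 65.9). Split only by whether another of the 7 lay within 5000 bp, that share differed little at the 2 most numerous lengths. At 1281 nt it was 56.8% for models without and 55.2% for those with another of the 7 near. At 771 nt 116 of 166 without and 49 of 69 with such a neighbour had no count, whereas at 780 nt the shares were 28.6% without and 74.2% with one. The 166 were mixed: no count was found for 54.2% of the 59 isolated ones and 78.5% of the 107 near only another recurrent length. Without another of the 7 near, there were 53 models of 414 nt and 65 of 426 nt. The medians at neighbouring lengths were 59 and 56. At the other lengths such models outnumbered that median, for example 125 against 9 at 1281 nt. Only 45 of these 125 were isolated, with no recurrent length within 5000 bp. With a window of 10000 bp, 277 of the 319 models of 1281 nt had another of the 7 near. Length alone chose the models, so whether the isolated ones share sequence with the clustered ones was not tested.

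The most counted models of each length mostly lay outside runs. By the rule for named models, the 2 with most counts of each length were taken, 14 in all on 8 scaffolds, and 13 of them had none of the 7 lengths within 5000 bp. The highest of all was a 426 nt model on scaffold 9 (336960 to 337385, minus strand) with 184 symbiotic and 151 aposymbiotic counts, or 26.9 and 27.0 CPM, which are counts relative to the scaled library sizes. The other 426 nt model, on scaffold 7 (17781883 to 17782308), had 103 symbiotic and 121 aposymbiotic counts. Its log2 ratio was -0.52, with a 95% interval of -0.92 to -0.13.

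At 1281 nt the top model was on scaffold 3 (20316620 to 20317900), with 126 symbiotic and 93 aposymbiotic counts. A second, on scaffold 9 (14387305 to 14388585), had 65 and 68. At 771 nt a model on scaffold 6 (11799461 to 11800231) had 117 symbiotic and 83 aposymbiotic counts, and one on scaffold 2 (7396187 to 7396957) had 88 and 80. None of these 4 ratios left equality beyond its counting interval. At 618 nt a model on scaffold 1 (3360438 to 3361055) had 95 symbiotic and 88 aposymbiotic counts, and a second on scaffold 6 (1169770 to 1170387) had 34 and 37.

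The second 618 nt model lay 10633 bp from the top 765 nt model of scaffold 6 (1158372 to 1159136), which had 68 symbiotic and 81 aposymbiotic counts and a log2 ratio of -0.54 (-1.03 to -0.06). The other 765 nt model, on scaffold 1 (32071068 to 32071832), had 69 and 57. At 780 nt a model on scaffold 2 (8062511 to 8063290) had 63 symbiotic and 51 aposymbiotic counts, and one on scaffold 10 (4192151 to 4192930) had 33 and 46, a log2 ratio of -0.77 (-1.46 to -0.10). The 414 nt length reached the lowest counts: a model on scaffold 1 (22673300 to 22673713) had 33 symbiotic and 28 aposymbiotic counts. This model lay 6186 bp from a 780 nt model on the opposite strand (22679900 to 22680679), beyond the window of 5000 bp. Likewise, the 771 nt model on scaffold 2 lay 9721 bp from a 618 nt model. The runner-up at 414 nt, on scaffold 8 (12870341 to 12870754), had 24 and 34. It was the only one of the 14 inside a run as chained at 5000 bp. Across the 14, 11 log2 ratios were below 0, and the interval excluded equality for 3, all of them lower in the symbiotic library. For all models, neither the share with a log2 ratio below 0 nor the share whose interval excludes equality was computed. Nothing particular to the set is therefore read from the 11 or the 3.

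Within complete runs, counts came mostly from a single copy. The 17 complete runs summed to 149 symbiotic and 82 aposymbiotic counts, and 5 of them had none. The run on scaffold 14 (2656063 to 2663958) alone held 116 and 67. All 6 of its models were counted: 426 nt had 31 symbiotic and 22 aposymbiotic counts, 765 nt had 18 and 7, 780 nt had 15 and 7, 618 nt had 13 and 7, 1281 nt had 28 and 15, and 414 nt had 11 and 9. Each of the 6 had more counts in the symbiotic library, which is also the deeper one.

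The most counted example of each frequent pair shows how neighbours compared. On scaffold 8, a 1281 nt model (12868860 to 12870140) with 9 symbiotic and 5 aposymbiotic counts was followed after 200 bp by the 414 nt model with 24 and 34. Also on scaffold 8, a 780 nt model (6778714 to 6779493) had 39 symbiotic and 30 aposymbiotic counts, its 426 nt neighbour (6776824 to 6777249) 1464 bp away had 31 and 23, and the diverging 1281 nt model (6783022 to 6784302) had 14 and 6. On scaffold 1, a 780 nt model (22679900 to 22680679) had 16 symbiotic and 13 aposymbiotic counts, and the 765 nt model 31 bp after it (22680711 to 22681475) had 29 and 30. The pair of 765 and 426 nt with most counts was that of the scaffold 14 run. For each of the models in these pairs the counting interval included equality.

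Between the conditions, the summed counts differed little. Summed over all 1584 models, the log2 ratio (symbiotic over aposymbiotic CPM) was -0.06 (95% interval -0.13 to 0.0058), against -0.07 (-0.12 to -0.03) for the other recurrent lengths and 0.03 for all remaining single-interval models. The scaling decided whether this interval included equality: it did with TMM, and it did not with total counts (-0.09, -0.16 to -0.02) or upper quartile scaling (-0.07, -0.14 to -0.0071). By length it was 0.02 at 414 nt (352 symbiotic and 283 aposymbiotic counts) and 0.0066 at 426 nt (930 and 756). It was -0.17 at 618 nt (446 and 409), -0.03 at 765 nt (487 and 406) and -0.07 at 771 nt (495 and 423). At 780 nt it was -0.14 (465 and 417), and at 1281 nt -0.08 (762 and 660). All 7 intervals included equality, with the lowest bound, -0.36, at 618 nt and the highest, 0.25, at 414 nt, and the sign of the 414 and 426 nt ratios turned with the scaling. By neighbourhood, the log2 ratio was -0.10 (-0.18 to -0.02) for the 587 models without another of the 7 near, an interval that excluded equality. It was 0.03 (-0.10 to 0.15) for the 997 with one, and these 2 intervals overlapped. This split was made after the positions had been seen. In RNA of whole polyps, fewer cells of a type and less RNA per cell cannot be told apart.

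The sums rest on few models, since the 20 most counted of the 1584 held 38.7% of all their counts. Without models of at least 10 counts, the ratio over all 7 lengths was 0.05 (-0.11 to 0.21). A single 414 nt model on scaffold 60 (14344 to 14757, plus strand) had 9 symbiotic counts and 0 aposymbiotic counts, on a scaffold whose models were counted in the symbiotic library alone. Without it the 414 nt ratio was -0.01. The symbiotic library had at least 1 count for 522 models and the aposymbiotic library for 470. Of these, 182 were seen in the symbiotic library alone and 130 in the aposymbiotic library alone, at unequal depth. The set had 652 models with at least 1 count over both libraries. Among all 34573 of the table, 24744 had at least 1 count. Counts confined to 1 library were found there for 2084 (symbiotic) and 1684 (aposymbiotic). Models counted in 1 library only thus made up a larger part of the counted models in the set than among all models. However, 506 of the 652 had fewer than 10 counts, against 7777 of the 24744. The part played by such low counts was not tested. Detection in 1 library only is not read as a trait of the set.

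**Figure D5:**
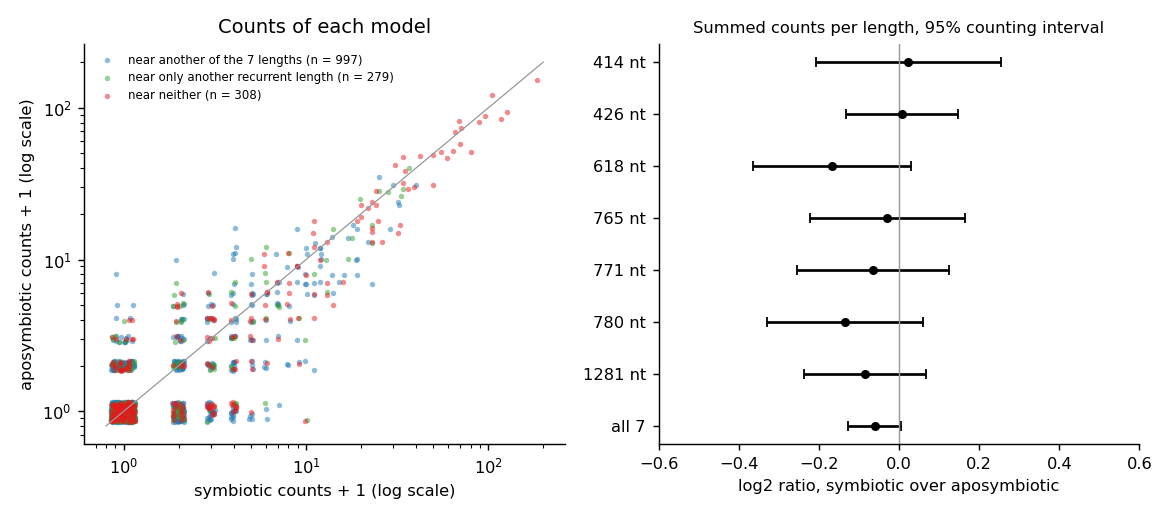
Left, counts of each of the 1584 models in the symbiotic (horizontal) and aposymbiotic library (vertical), plus 1, on log axes with slight jitter and a line of equal counts, coloured by what lies within 5000 bp. Right, log2 ratio of summed counts per length with 95% counting intervals (bars), which include 0 for each length; most points with high counts on the left are isolated models.

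Single models seldom met the rule for a difference, which asked for a mean CPM of at least 1, a ratio of at least 2-fold and a counting interval that excludes equality. Only 116 of the 1584 (7.32%) reached that level, against 46.7% of all models. Of the 116, 1 was higher in the symbiotic library (0.862%, where 0.947% of all models that entered were) and 4 were lower (3.45%, against 1.42%). These are 5 models, and nothing particular to the set is read from them. The median log2 ratio of the 116 was -0.06 and that of all models that entered 0.01.

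The 5 were models of 426 and 780 nt with low counts, and each lay in a run. Model cHydvir-v1B3C1_g31731 (426 nt, scaffold 8, 11530654 to 11531079, plus strand) was the higher one, with 22 symbiotic and 6 aposymbiotic counts and a log2 ratio of 1.58 (0.24 to 3.17). In the same run, 667 bp before it, a 765 nt model had 7 and 8, and before that a 780 nt model (11528411 to 11529190) was lower, with 3 symbiotic and 10 aposymbiotic counts and a log2 ratio of -2.03 (-4.53 to -0.07). Models of opposite direction thus stood within 1 arrangement of 8322 bp, whose 5 models summed to 42 and 33.

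Model cHydvir-v1B3C1_g7836 (426 nt, scaffold 11, 12799503 to 12799928) had 3 symbiotic and 15 aposymbiotic counts, a log2 ratio of -2.61 (-5.04 to -0.79). Model cHydvir-v1B3C1_g15358 (426 nt, scaffold 2, 283975 to 284400) had 3 and 11, a log2 ratio of -2.17 (-4.65 to -0.25), and belonged to the run of 7 models. A 780 nt model on scaffold 14 (2306602 to 2307381) had 3 symbiotic and 10 aposymbiotic counts, and the 765 nt model 31 bp after it had 2 and 7. Each lower model had 3 symbiotic counts, the number that a count of 0 allows, so these calls sit at the limit of the depth.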

How the data were processed

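RNA of whole polyps was profiled in 1 symbiotic and 1 aposymbiotic library. The deposited table holds counts, that is, whole read pairs per gene model, from featureCounts (Subread 2.1.1) over the exons of a BRAKER3 annotation, per the file headers. Strand was not used and reads of several alignments were not admitted. The submitters' processing notes also list fastp (1.1.0), STAR (2.7.11b) and deepTools (3.5.6). Although polyA RNA stands in the molecule field, the labels' protocol describes total RNA. Library totals were 6905650 (symbiotic) and 5533508 (aposymbiotic), and 0 columns of per-sample values were left unused.

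Models with a single start and end and the 7 lengths were taken. Intervals of other models were joined into exon blocks where they overlap. CPM used library sizes scaled by TMM in edgeR 4.0.16 under R 4.3.3 (factors 0.991 symbiotic, 1.01 aposymbiotic). Printed ratios carry exact Clopper-Pearson 95% intervals that condition on the summed counts. The 2-fold rule used a prior count of 0.5. Near means a gap of at most 5000 bp. Procedures were tested on simulated data. The scripts ran on Python 3.11.15 (numpy 2.4.6, pandas 2.3.3, scipy 1.17.1), and figures were drawn with matplotlib 3.10.9.

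Named models were the 2 with most counts per length, those meeting the 2-fold rule, the most counted example of each of the 5 most frequent pairs, and the hosts of models in introns. The members and lists were chosen with earlier results of these data known. Gap ranges, runs, settings around the 1281 nt models and groups by neighbourhood were set after seeing the positions. Alternatives were other scalings, filters, windows and subsets of the models.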

Additional observations from a re-analysis of the deposited data

How the results depend on the processing

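Of 165 alternative values, 153 kept within the spread or 1.5 times of the value reported, and 12 moved further. A change of direction was defined only for summed ratios whose TMM interval excludes equality. Neither the ratio over all 7 lengths nor that of any single one had such an interval, so this could not be scored for them. Scalings were TMM, total counts, RLE and upper quartile. Of 56 alternative ratios, 53 stayed inside the counting interval, and 9 had another sign, all of ratios whose interval includes equality. Over all 7 lengths that interval excluded equality under total counts (-0.155 to -0.0215) and upper quartile (-0.141 to -0.0071). Without models of at least 10 counts, the log2 ratio was 0.051 over all lengths, 0.37 at 618 nt and 0.23 at 771 nt. Models counted as at least 2-fold higher were 5 at a mean CPM of at least 0.5 (2.62% of those that entered, against 1.14% of all models), 5 with no filter beyond 1 count (0.767% against 0.845%), and 4 with no interval required (3.45% against 1.98%). Lower ones were 6 (3.14% against 1.60%), 6 (0.920% against 1.25%) and 10 (8.62% against 2.63%) under the same rules. Inside the span of another model lay 4. Between consecutive copies on the same strand, the median distance was 1471657 bp at 618 nt and 868756.5 bp at 771 nt. The cause of these shifts was not tested. Leaving out scaffold 60, chaining at 10000 bp (355 runs, of which the most frequent, 75, joined a 771 and a 1281 nt model) and taking intervals as listed were chosen after seeing the data. Depth limits single models: only 116 of 1584 reached a mean CPM of 1. No paired analysis was possible because each condition has 1 library and no result comes from a test.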
